A study of Mus musculus with 2 samples.

Results

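The genes described here encode the smooth muscle contractile apparatus that marks mammary myoepithelium. They are Acta2, Actg2, Myh11, Mylk, Myl9, Cnn1, Tagln, Tpm1, Tpm2 and Oxtr, chosen by symbol from the deposited expression table, which holds 10 of the 10 among its 16906 genes. Their RNA was measured by bulk RNA sequencing of luminal epithelial cells enriched from mammary glands by fluorescence-activated sorting, about 20000 cells per library. The CKO library came from K8-CreERT2;miR-200c/141-flox/flox mice and the Ctrl library from miR-200c/141-flox/flox mice, which carry the same floxed microRNA cluster but no Cre. Mice of both genotypes received tamoxifen, were C57BL/6 and were 8 weeks old. K8-CreERT2 is a Cre recombinase that tamoxifen activates and that the promoter of keratin 8, a luminal keratin, drives. Whether a difference comes from Cre itself or from the loss of the cluster cannot be told apart. Cells were taken 4 weeks after tamoxifen according to one label and 3 days after it according to another. Each group is 1 library, the number of mice behind it is not given in the sources used here, and there are no replicates. No difference below was tested across samples.

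Myoepithelial cells form the basal layer around the luminal cells of the mammary ducts and alveoli, and they contract to eject milk. Oxytocin binds its receptor on these cells and raises calcium, calmodulin then activates myosin light chain kinase, and the phosphorylated myosin pulls on smooth muscle actin filaments. Tropomyosin, calponin and transgelin lie along those filaments. In smooth muscle, many of these genes are switched on by serum response factor (SRF), which binds a short DNA element called the CArG box, together with its coactivators of the myocardin family. Luminal cells use the non-muscle relatives of the same proteins.

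All 10 contractile genes had a higher level in the CKO library than in the Ctrl library. Levels are the deposited FPKM (fragments per kilobase of gene length, corrected for the size of the library), and their ratios, CKO over Ctrl, ran from 1.42-fold for Tpm1 to 2.12-fold for Actg2. Differences are given as the log2 ratio of FPKM + 0.5 with the 95% interval of the read ratio, an exact conditional binomial interval on read numbers estimated from the table. The interval is computed without the added 0.5, and it covers counting error only. A gene counted as measured at a mean of 1 FPKM or more, and as higher or lower where its ratio was at least 1.5-fold and its interval excluded a ratio of 1. Of the 10 genes, 9 were measured, and 7 of those 9 were higher and 0 lower. Across all 11667 measured genes, 2.29% were higher and 3.03% lower by the same rule. The median log2 ratio was 0.75 over the 9 genes and -0.03 over all measured genes, of which 44.8% had a ratio above 0. The bulk measurement cannot tell more cells of a type from more RNA per cell. Acta2, Actg2, Myl9, Cnn1, Tagln, Tpm1 and Tpm2 have deposited lengths of 1086 to 1779 bases. Oxtr, Myh11 and Mylk have 4695 to 5610 bases. The part of gene length or RNA quality in the ratios was not tested.

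**Figure D1:**
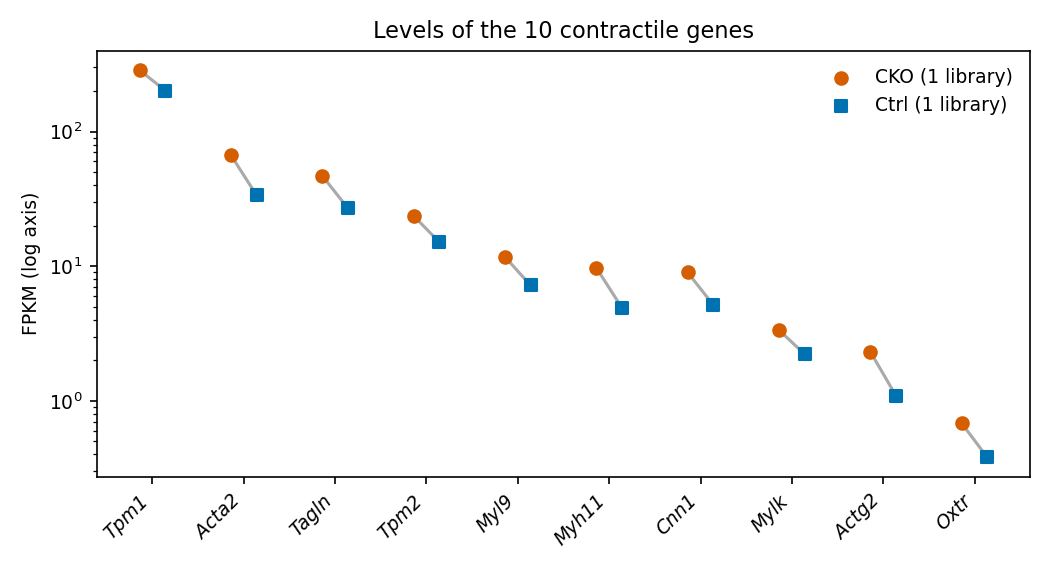
FPKM on a log axis of each contractile gene in the CKO library (circles) and the Ctrl library (squares), ordered by the CKO level. The CKO point lies above the Ctrl point for all 10 genes, from 285.74 against 201.63 FPKM for Tpm1 down to 0.68 against 0.38 FPKM for Oxtr.

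The deleted cluster makes 2 main mature microRNAs, shown here because their seeds were used to look for matches in the transcripts. They are printed 5′ to 3′ from RefSeq on GRCm38.p6, with the seed (bases 2 to 8) in capitals.
miR-200c-3p: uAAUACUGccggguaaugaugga
miR-141-3p: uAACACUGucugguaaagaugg
The 7 letters that pair with the seed of miR-200c-3p are CAGTATT, and those for miR-141-3p are CAGTGTT. Both were sought on the sense strand of the longest annotated 3′ untranslated region of each gene (GENCODE M21 on GRCm38). Of the 10 contractile genes, 9 held no match to either, in regions of 80 bases (Actg2) to 1899 bases (Tpm1). The myosin light chain kinase gene Mylk, with 1888 bases, was among them. Of 11153 measured genes with such a region, 30.1% held at least 1 match. Oxtr, with the longest region at 3391 bases, held both, in exon 2 of 2 on the minus strand of chromosome 6. The matches are in capitals in these 2 windows, at chr6:112474889-112474918 and chr6:112474435-112474464.
Oxtr, match to miR-200c-3p: tcttctgctatgctgCAGTATTtgcccaaa
Oxtr, match to miR-141-3p: ttctgaccatggacaCAGTGTTccggagag
Such a match is a run of letters and not a site shown to be bound, since binding was not measured. A gene without a match is not shown to escape pairing, since only this 7-letter match in 1 region per gene was sought.

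Oxtr encodes the receptor through which oxytocin makes the myoepithelium contract. It stood at 0.68 FPKM in CKO and 0.38 FPKM in Ctrl, the lowest level of the 10 in both libraries and under the minimum for a measured gene. About 37 reads lay behind the CKO value and 22 behind the Ctrl value. The log2 ratio was 0.42, with an interval of 0.08 to 1.71. The p-value in the authors' deposited table is precise enough for Oxtr to be matched by whole reads, 36 in CKO and 23 in Ctrl. With those the interval ran from -0.02 to 1.60 and held a ratio of 1, so a difference in Oxtr was not detectable at this depth.

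The smooth muscle actins form the thin filaments. Acta2, alpha smooth muscle actin and the usual marker of myoepithelium, stood at 66.72 FPKM in CKO and 33.68 FPKM in Ctrl, a 1.98-fold ratio. About 1322 reads in CKO and 729 in Ctrl lay behind these values. The log2 ratio of 0.98 (0.85 to 1.12) was exceeded or equalled by 94 of the measured genes, Acta2 included. Its CKO level was above that of 93.4% of the genes in the table, and its Ctrl level above 85.8%. Actg2, the gamma actin of enteric smooth muscle, was far lower, at 2.31 FPKM in CKO and 1.09 FPKM in Ctrl. Its reads were 35 in CKO and 18 in Ctrl, and the log2 ratio was 0.82 (0.23 to 1.99). The ratio of Actg2 was thus the highest of the 10 in FPKM and among the least precise.

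The myosin motor and its control came next. Myh11 encodes the smooth muscle myosin heavy chain, the motor itself, and stood at 9.71 FPKM in CKO and 4.91 FPKM in Ctrl. Its log2 ratio was 0.92 (0.79 to 1.18), close to that of Acta2, on about 616 reads in CKO and 340 in Ctrl. Myl9, the regulatory light chain that the kinase phosphorylates, was at 11.72 FPKM in CKO and 7.20 FPKM in Ctrl. The log2 ratio of Myl9 was 0.67 (0.32 to 1.09). Mylk encodes the kinase, and was at 3.35 FPKM in CKO and 2.22 FPKM in Ctrl. Its log2 ratio of 0.50 (0.29 to 0.90) stayed under 1.5-fold although the interval excluded a ratio of 1. The p-value of the authors' deposited table implies a larger log2 read ratio of 0.83 for Mylk, which would pass. Without the added 0.5 FPKM the Mylk ratio was 1.51-fold, so its side of the threshold depends on the scale.

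The proteins along the actin filament had the widest range of levels. Tagln (transgelin, also called SM22) stood at 46.90 FPKM in CKO and 26.92 FPKM in Ctrl, a log2 ratio of 0.79 (0.64 to 0.96). Cnn1 (calponin, which restrains the actomyosin ATPase) was at 8.98 FPKM in CKO and 5.15 FPKM in Ctrl, a log2 ratio of 0.75 (0.41 to 1.19). Both were higher by the rule, with nearly the same FPKM ratio of 1.74-fold. Tpm2, a tropomyosin, was at 23.62 FPKM in CKO and 15.11 FPKM in Ctrl, and its log2 ratio of 0.63 (0.43 to 0.87) was the lowest that passed. Tpm1, the other tropomyosin here, was the most abundant of the 10, at 285.74 FPKM in CKO and 201.63 FPKM in Ctrl. Its log2 ratio of 0.50 (0.45 to 0.56) was the most precise, on about 5821 reads in CKO and 4487 in Ctrl, and lay wholly under 1.5-fold. Tpm1 alone made up 62.2% of the summed FPKM of the 10 genes in CKO and 67.6% in Ctrl. With 1 value per gene, whether its transcripts were of a smooth muscle form cannot be told.

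The order of the levels, which FPKM puts on a scale per length, was almost the same in both libraries. Tpm1, Acta2, Tagln, Tpm2 and Myl9 led in that order, and Mylk, Actg2 and Oxtr closed it in both. Only Myh11 and Cnn1 changed places, at 9.71 and 8.98 FPKM in CKO and at 4.91 and 5.15 FPKM in Ctrl. With 1 library each, whether neighbours differ beyond the spread between animals is not known.

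The 10 genes did not all have the same ratio. Summed over the 10, about 9605 reads in CKO and 6765 in Ctrl gave a log2 read ratio of 0.63 (0.59 to 0.68). That sum was mostly Tpm1. The other 9 genes together had 3784 reads in CKO and 2278 in Ctrl, and their log2 read ratio was 0.86 (0.78 to 0.94), or 1.81-fold. The intervals of 9 of these 9 genes held that value, to which Acta2 gave the most reads, while the interval of Tpm1 lay below it. Set against each other by the difference of log2 read ratios, 4 of the 36 pairs among the 9 genes had an interval that excluded 0, with no adjustment for the number of pairs. These were Acta2 against Tpm2, at 0.34 (0.08 to 0.60), Acta2 against Mylk, at 0.40 (0.06 to 0.73), and Myh11 against Tpm2 and Mylk, at 0.34 (0.04 to 0.63) and 0.39 (0.03 to 0.76). The deposited p-values imply log2 read ratios of 0.93 for Acta2, 0.79 for Myh11, 0.83 for Mylk and 0.62 for Tpm2. By these Myh11 was not above Mylk, so the pairs with Mylk or Myh11 depend on the source of the reads. Of the 9 pairs with Tpm1, 3 excluded 0, those with Acta2, Myh11 and Tagln.

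**Figure D2:**
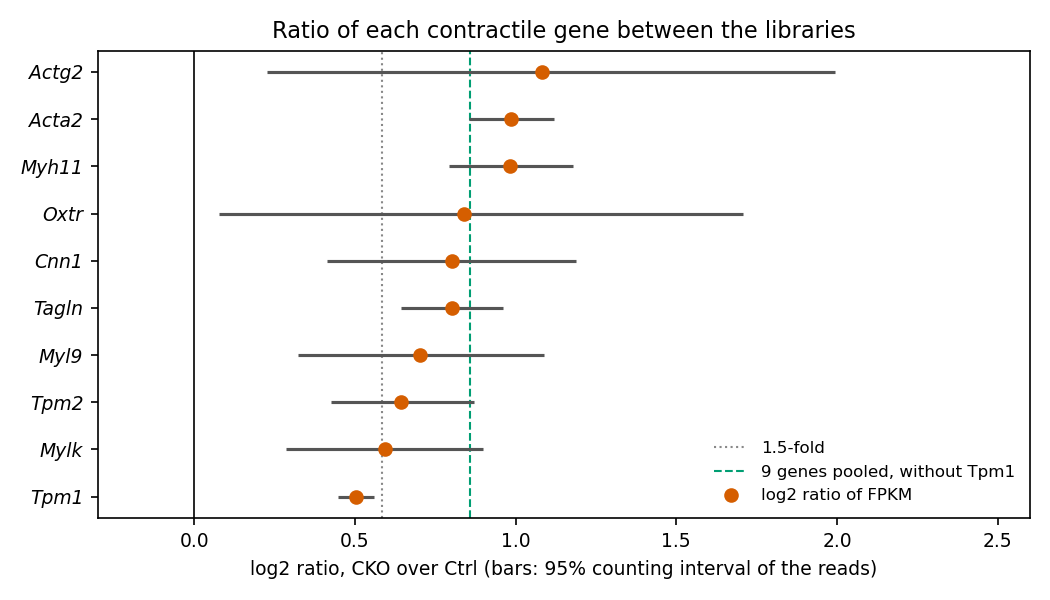
Log2 ratio of FPKM, CKO over Ctrl, of each contractile gene (points) with the 95% counting interval of its read ratio (bars). The dashed line is the ratio of the 9 genes pooled without Tpm1, 0.86, which lies inside the bars of those 9 genes and above the bar of Tpm1, and the dotted line is 1.5-fold.

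No gene of the 10 carries a call of up or down in the authors' deposited table, where 0.615% of all genes are called up and 0.639% down. That call needs a 2-fold ratio, which only Actg2 passed in FPKM, with a deposited false discovery rate of 0.0387. The deposited false discovery rate was at most 0.001 for 7 of the 10 genes, a level that 10.6% of all genes reached in either direction. It was 4.59e-44 for Acta2, 2.19e-15 for Myh11 and 1.08e-72 for Tpm1. These deposited values compare the reads of the 2 libraries and not the conditions.

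The non-muscle relatives, which luminal cells use for their own cytoskeleton, were closer between the libraries. Of 13 measured relatives, 0 were higher and 0 lower by the rule, although 10 had ratios above 0 and the median log2 ratio was 0.23. The cytoplasmic actins Actg1 and Actb had log2 ratios of 0.24 each, at 3855.71 and 1457.78 FPKM in CKO and 3266.48 and 1238.46 FPKM in Ctrl. The light chain genes Myl6 and Myl12a had log2 ratios of 0.32 and 0.30, and the transgelin relative Tagln2 had 0.30. The non-muscle myosin heavy chain genes ran the other way, with -0.09 for Myh9, -0.12 for Myh14 and -0.49 for Myh10. These myosin genes are long, at 6499 to 7783 bases, while Actg1, Actb, Myl6, Myl12a and Tagln2 have 696 to 1935 bases. Myh11, which was higher, has 5540 bases. The part of length in these differences was not tested. The tropomyosins Tpm3 and Tpm4, at 0.02 and 0.09, were close to 0.

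Set against its non-muscle relatives, each contractile gene with such a relative had the larger ratio. The difference of log2 read ratios was above 0 in 15 pairs of a contractile gene and a relative, and its exact counting interval excluded 0 in 14 of them. Myh11 against Myh10 gave the largest difference, 1.52 (1.25 to 1.80), and Myh11 made up 70.3% of the summed FPKM of that pair in CKO and 45.2% in Ctrl. Acta2 against Actb gave 0.75 (0.62 to 0.89), and Acta2 was still only 4.38% of the summed FPKM of the pair in CKO and 2.65% in Ctrl. Tpm1 against Tpm4 gave 0.41 (0.33 to 0.49) and Tagln against Tagln2 0.50 (0.34 to 0.67). In Ctrl, Tpm1 stood at 201.63 FPKM, near Tpm3 at 248.85 and Tpm4 at 236.18 FPKM. The values are per gene, so the pairs with Tpm1 or Tpm2 do not separate smooth muscle from non-muscle forms. The exception was Actg2 against Actg1, at 0.85 (-0.01 to 1.76), where Actg2 had few reads.

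**Figure D3:**
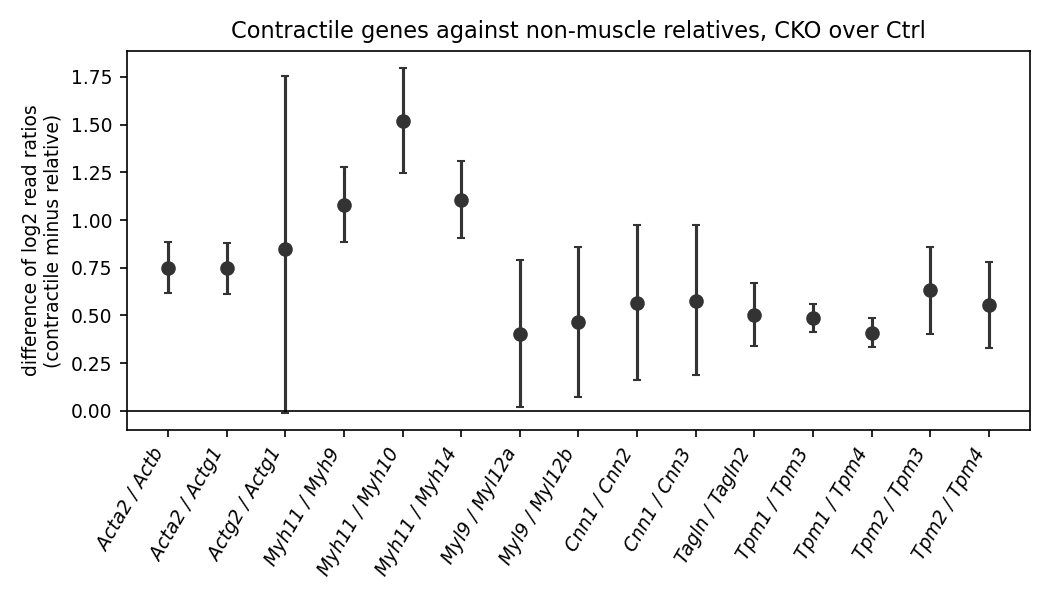
Difference of the log2 read ratios (CKO over Ctrl) of a contractile gene and of a non-muscle relative, with exact 95% counting intervals as bars. All 15 points lie above 0, from 0.40 for Myl9 against Myl12a to 1.52 for Myh11 against Myh10, and the bar of Actg2 against Actg1 reaches below 0.

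Other measured genes of the smooth muscle cytoskeleton had ratios nearer to 1. Of 24 listed, 19 were measured, with 0 higher and 0 lower, a median log2 ratio of 0.07 and a range of -0.28 to 0.27. Csrp1, a LIM protein of the actin bundles, had the highest level of them and a log2 ratio of 0.27. The actin crosslinker Actn1 was at -0.07, Pdlim7 at 0.01, the adhesion protein gene Vcl at 0.14 and the myosin phosphatase partner Mprip at -0.28. Many of these genes also serve the cytoskeleton of other cells. The smooth muscle genes Lmod1, Des and Synpo2, named after their values were seen, were under the minimum. Lmod1 was at 0.86 FPKM in CKO and 0.75 FPKM in Ctrl, Des at 0.85 FPKM in CKO and 0.63 FPKM in Ctrl. Synpo2 was at 0.51 FPKM in CKO and 0.43 FPKM in Ctrl, and the interval of each of the 3 held a ratio of 1. These intervals, -0.37 to 1.29 for Des, -0.48 to 0.89 for Lmod1 and -0.52 to 1.09 for Synpo2, also held the 0.86 of the 9 contractile genes, so these genes could not be placed at this depth.

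Regulators of the contractile programme were measured too. Srf, the factor that binds the CArG box, stood at 77.78 FPKM in CKO and 64.65 FPKM in Ctrl, a log2 ratio of 0.26 (0.20 to 0.34). Its coactivator genes Mkl1 and Mkl2 had log2 ratios of -0.07 (-0.20 to 0.06) and -0.22 (-0.36 to -0.11). Myocd, the gene of myocardin itself, was hardly present, at 0.09 FPKM in CKO and 0.01 FPKM in Ctrl, the lowest value the table lists. Its p-value in the authors' deposited table matches 8 reads in CKO and 0 in Ctrl, and the interval of its log2 read ratio began at 0.90, above a ratio of 1. Of the 10 measured regulators, which do not include Myocd, 0 were higher and 0 lower, and the median log2 ratio was -0.08. The zinc finger gene Klf4 was at 0.20, and the coactivators of the Hippo pathway, Yap1 and Wwtr1, at -0.20 and 0.11. Hexim1, which inhibits a kinase of transcript elongation, was at 0.07.

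Promoters were searched for the CArG box because 7 of the 10 genes passed together. The RefSeq promoter table (GRCm38.p6, 250 bases before to 50 after the start) held 7 of the 10 genes, with none for Actg2, Myh11 and Tagln. The CArG box is a palindrome of 10 letters, a run of A and T between a pair of C and a pair of G, so both strands read alike. Of the 7 promoters, 1 held an exact box (Myl9), and 3 held a box with at most 1 letter changed (Acta2, Myl9 and Tpm1). Those 3 held 2 such boxes each, the exact one counted among them. Among all 32851 promoters of the table, 1.63% held an exact box, 21.1% held at least 1 with at most 1 letter changed, and 3.70% held 2 or more. Among the 11988 promoters of measured genes these shares were 1.31%, 16.7% and 2.51%. Such boxes were not found within these windows of Mylk, Cnn1, Tpm2 and Oxtr, which says nothing of sites elsewhere. The Mylk window, chr16:34784700-34784999 on the plus strand, lies inside the gene, which begins at 34745199. The Oxtr window, chr6:112489776-112490075 on the minus strand, also lies inside its gene, which reaches 112491035. The outermost starts of these genes were thus not searched. The promoters of Acta2, on the minus strand at chr19:34255324-34255623, and of Myl9, on the plus strand at chr2:156775214-156775513, are shown as the clearest examples, with the boxes in capitals.
Acta2: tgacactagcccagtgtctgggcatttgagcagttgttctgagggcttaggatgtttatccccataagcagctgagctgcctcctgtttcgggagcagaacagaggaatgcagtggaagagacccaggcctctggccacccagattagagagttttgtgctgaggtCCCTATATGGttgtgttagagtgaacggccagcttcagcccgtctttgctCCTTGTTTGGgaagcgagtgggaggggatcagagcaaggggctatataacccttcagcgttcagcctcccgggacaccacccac
Myl9: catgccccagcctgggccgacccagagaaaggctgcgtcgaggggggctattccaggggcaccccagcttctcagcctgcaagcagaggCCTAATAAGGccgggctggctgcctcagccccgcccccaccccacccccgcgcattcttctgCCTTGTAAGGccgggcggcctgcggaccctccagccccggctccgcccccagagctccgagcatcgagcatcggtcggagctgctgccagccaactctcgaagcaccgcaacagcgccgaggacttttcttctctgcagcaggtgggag
In Myl9 the exact box, CCTAATAAGG, begins 161 bases before the start that its window uses. In Acta2 the boxes begin 84 and 34 bases before the start of its window. That Acta2 start lies inside the gene, which is annotated up to chr19:34255585, so these distances are not from its outermost start. The log2 ratios of the 3 genes with boxes were 0.98 for Acta2, 0.67 for Myl9 and 0.50 for Tpm1, and those of the 4 genes without were 0.75 for Cnn1, 0.63 for Tpm2, 0.50 for Mylk and 0.42 for Oxtr, so the ranges overlap.

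Genes of the signalling chain from the oxytocin receptor to contraction did not share one direction. Of 24 measured genes of 30 listed, 1 was higher and 0 lower, 8 had ratios above 0, and the median log2 ratio was -0.07 in a range of -0.55 to 1.17. The lowest was Plcb1, a phospholipase of this chain named after its value was seen, at 5.02 FPKM in CKO and 7.59 FPKM in Ctrl, with a log2 ratio of -0.55 (-0.78 to -0.42). The 1 higher gene was Ppp1r14a, an inhibitor of myosin phosphatase in smooth muscle, named after its value was seen. It was at 3.83 FPKM in CKO and 1.43 FPKM in Ctrl, a log2 ratio of 1.17 (0.32 to 2.78) on only 23 reads in CKO and 9 in Ctrl. The calmodulin genes Calm2 and Calm3 had log2 ratios of 0.24 and 0.07, and Rhoa, a small GTPase that promotes contraction, 0.05. The calcium pump gene Atp2a2 was at -0.20 and the phosphatase subunit gene Ppp1cb at -0.05.

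Myoepithelial genes outside the contractile apparatus went both ways. Of 25 basal epithelial markers 22 were measured, of which 4 were higher and 1 was lower, and the median log2 ratio was 0.07. The keratin partners Krt14 and Krt5 were higher, at 90.79 and 14.78 FPKM in CKO and 44.49 and 9.27 FPKM in Ctrl. Krt17, named after its value was seen, had a log2 ratio of 0.71, and the lipoprotein gene Apoe 0.66. Trp63, the gene of the p63 factor that maintains basal cells, was lower, at 1.05 FPKM in CKO and 2.96 FPKM in Ctrl. Others of the 5 most abundant markers lay on the side of Ctrl, with -0.50 for the binding protein gene Igfbp5, -0.42 for the integrin gene Itga6 and -0.16 for the integrin gene Itgb1. Igfbp5, Itga6 and Itgb1 have lengths of 4194 to 5984 bases, and Krt14, Krt5, Krt17 and Apoe of 1232 to 2190 bases. Itgb4, at 6031 bases, had a log2 ratio of 0.01. The part of length here was not tested. Of the 22 measured markers, 12 had ratios above 0. Among these were Sparc at 0.58 (0.44 to 0.75) and Vim at 0.48 (0.29 to 0.71), both named after their values were seen. The summed FPKM of the 25 genes was 923.21 in CKO and 931.29 in Ctrl, and none was listed at 0.01 in either library. Summed as reads, as for the contractile genes, they had 40702 in CKO and 52196 in Ctrl. That log2 read ratio was -0.23 (-0.25 to -0.21). Acta2 and Krt14 had the same ratio within counting error, with a difference of log2 read ratios of -0.04 (-0.22 to 0.13). Acta2 against Krt5 differed by 0.31 (0.04 to 0.58) and Acta2 against Trp63 by 2.50 (2.02 to 2.99). The part of basal cells in the contractile result was not tested.

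**Figure D4:**
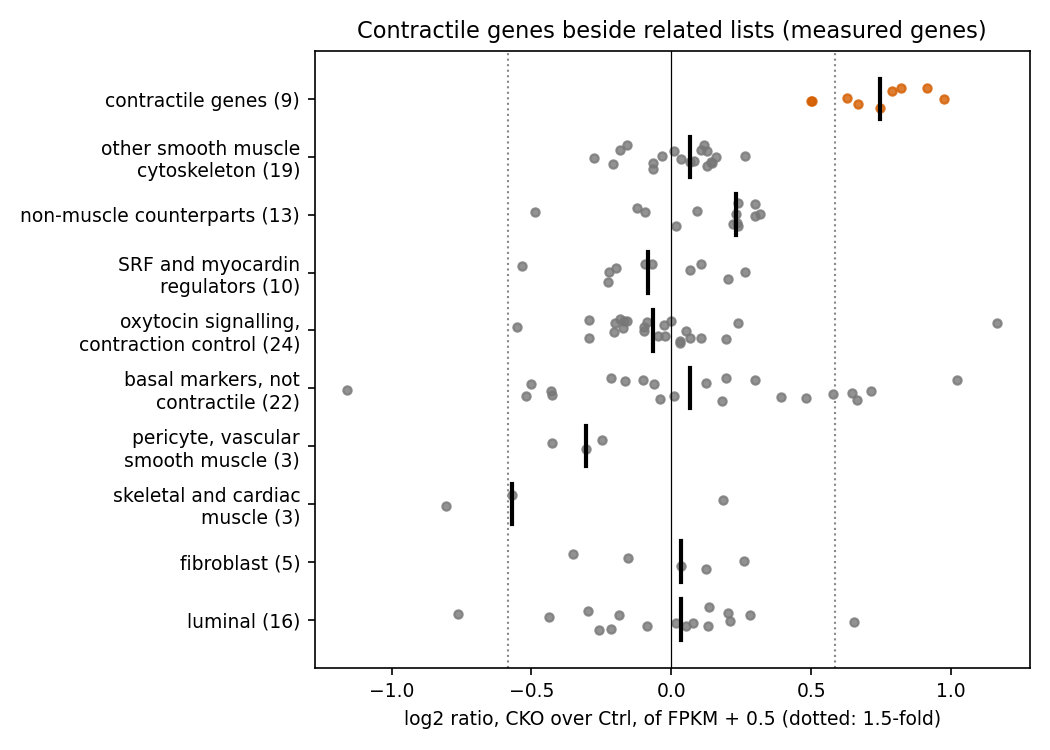
Log2 ratio of FPKM + 0.5, CKO over Ctrl, of each measured gene (points) in the contractile set and in 9 related lists, with the list median as a vertical bar, the number of measured genes in brackets and 1.5-fold as dotted lines. The contractile genes lie between 0.50 and 0.98 with a median of 0.75, while the medians of the other lists lie between -0.57 (3 measured genes of skeletal and cardiac muscle) and 0.23.

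Luminal markers were high in both libraries. The luminal keratin genes Krt18 and Krt8 stood at 10398.4 and 4476.23 FPKM in CKO and 6606.79 and 3871.08 FPKM in Ctrl, and the 16 luminal markers were all measured. Their median log2 ratio was 0.03, with 1 higher (Krt18) and 1 lower, Prom1, named after its value was seen. Among the other luminal markers Krt19 had a log2 ratio of 0.28, the junction gene Cldn4 -0.09 and Epcam 0.05.

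Markers of other cells that carry contractile genes were mostly weak. Of 13 markers of pericytes and vascular smooth muscle, 3 were measured, with 0 higher, 0 lower and a median log2 ratio of -0.31. All 3 ratios were below 0. Over all 13, with no minimum, 6 ratios were above 0 and the median was -0.02. Notch3, a receptor of pericytes that luminal cells express too, was at 37.10 FPKM in CKO and 46.00 FPKM in Ctrl. Mcam was at 11.43 FPKM in CKO and 15.53 FPKM in Ctrl, and Rgs5 at 2.21 FPKM in CKO and 2.72 FPKM in Ctrl. The log2 ratio was -0.31 (-0.37 to -0.25) for Notch3, -0.43 (-0.64 to -0.25) for Mcam and -0.25 (-0.67 to 0.09) for Rgs5. The part of pericytes and vascular smooth muscle in the contractile result was not tested. The summed FPKM of the 13 genes was 54.81 in CKO and 67.85 in Ctrl, with 0 genes listed at 0.01 in CKO and 1 in Ctrl. Heyl and Vtn were under the minimum, with intervals that held a ratio of 1. Kcnj8, also under the minimum and named after its value was seen, was lower on few reads, 6 in CKO and 18 in Ctrl. It was at 0.20 FPKM in CKO and 0.55 FPKM in Ctrl (log2 interval -3.08 to -0.06).

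Skeletal and cardiac muscle markers were low. Of 16 listed, 13 are in the table and 3 were measured (Tnnt2, Mb and Mylpf), with 0 higher, 0 lower and a median log2 ratio of -0.57. Over all 13 the median was 0. Tnnt2 was at 4.35 FPKM in CKO and 6.70 FPKM in Ctrl, and Mb at 4.83 FPKM in CKO and 4.19 FPKM in Ctrl, above the levels of Mylk and Actg2. Their summed FPKM was 11.22 in CKO and 14.17 in Ctrl, with 6 genes listed at 0.01 in CKO and 3 in Ctrl. Acta1, the skeletal muscle actin, was at 0.25 FPKM in CKO and 0.17 FPKM in Ctrl. Fibroblast markers, 5 measured of 10, had 0 higher and 0 lower, a median log2 ratio of 0.03 and a summed FPKM of 45.82 in CKO and 42.97 in Ctrl, with none listed at 0.01. Their most abundant gene was Dcn, at 30.74 FPKM in CKO and 25.57 FPKM in Ctrl. Under the minimum, Pdgfra and Lum, named after their values were seen, were lower. Pdgfra was at 0.31 FPKM in CKO and 1.05 FPKM in Ctrl (log2 interval -2.45 to -1.10), and Lum at 0.38 FPKM in CKO and 1.16 FPKM in Ctrl (log2 interval -2.87 to -0.50). The collagen genes Col3a1, Col1a1 and Col1a2 had log2 ratios of 0.03, -0.15 and -0.35.

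Sequence shared with other genes bears on how far a value belongs to its gene. Of the 50-base windows of each contractile transcript, 0% to 0.4% occurred in another GENCODE gene for 8 of the 10 genes, Acta2 and Actg2 among them. Mylk shared 4.28% with antisense genes. Tagln shared 48.3%, almost all of it with Gm48529, an antisense gene annotated across 62.4% of its exonic bases that is not a row of the table, and a small part with Pcsk7, a gene of the opposite strand. Strand use in the counting is not given in the sources used here, so reads of Tagln and of its antisense partner cannot be told apart. Pcsk7 itself had a log2 ratio of 0.17.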

How the data were processed

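The authors deposited 1 table with 1 FPKM value per gene and library. Per the submitters' processing notes HISAT, Bowtie2 and RSEM were used with the mm10 genome, without versions. The header names no unit. The values were taken as FPKM because, multiplied by the deposited length in kilobases, they sum to 999909 in CKO and 999609 in Ctrl. Genes without reads are listed at 0.01, a value that a very long gene can also reach with reads. The deposited log2 fold change equals the log2 ratio of the FPKM columns. The deposited p-values and false discovery rates come from the authors' comparison of the reads of the 2 libraries.

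Ratios were formed on FPKM + 0.5 without further scaling. Library totals were estimated from the deposited p-values, which follow a Poisson comparison of 2 libraries. Of 641 genes listed at 0.01 in Ctrl and above it in CKO, 620 gave whole reads within 0.01, and the fit to 9089 genes gave about 11500000 reads in CKO and 12500000 in Ctrl. Whole reads matching the p-value were within 3 of the estimate for Actg2, Myl9 and Oxtr. They were sought only in a narrow band around the estimate, so their closeness is no separate check of it. Of the 10 genes the match was sought only for these 3, which have the largest deposited p-values. For Myh11 the p-value implies a log2 read ratio of 0.79, against 0.98 from FPKM, and for Mylk 0.83 against 0.59. Estimated reads gave the exact conditional binomial (Clopper-Pearson) intervals, which cover counting error only.

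The genes, the related lists and the thresholds were chosen with earlier results of these data known. From each related list the 5 genes with the highest mean FPKM are named, plus Srf, Myocd, Mkl1, Mkl2, Krt14, Krt5 and Trp63; others are introduced as named after their values were seen. A gene that the rule names is not reported here. Alternatives varied the pseudocount, minimum, scaling, fold and source of the ratio. Python 3.11.15 with scipy 1.17.1 was used.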

Additional observations from a re-analysis of the deposited data

How the results depend on the processing

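Under 5 alternatives per gene, 50 of 50 log2 ratios were above 0, from 0.28 to 1.08, and each lay within its gene's counting interval. The direction of the 10 contractile genes was not put to a test by this, since none of these settings could reverse it. A pseudocount keeps the side of a ratio and scaling moved the ratios by only 0.03. The implied read ratios were solved on the side of the FPKM ratio. The count of 7 higher genes became 8 with the read ratios implied by the deposited p-values, and also without a pseudocount, a setting chosen after seeing the data. At 2-fold in place of 1.5-fold 0 genes were counted. At 2-fold 0.754% of all measured genes were counted as higher, and the 10 genes had ratios close to or under that fold. The median log2 ratio was 0.66 with a pseudocount of 1, and 0.80 both with the implied read ratios and without a pseudocount. The summed log2 read ratio of 0.63 was 0.86 without Tpm1. Scaling to the median or by the trimmed mean of M-values raised the ratios by 0.03. With no minimum the list medians of pericyte and vascular smooth muscle markers and of skeletal and cardiac muscle markers, each resting on 3 measured genes, moved from -0.31 to -0.02 and from -0.57 to 0. The medians of the other 7 related lists moved by less than 0.1. No paired analysis was possible because each group has 1 library. Leaving out a replicate was not possible for the same reason, so the spread between animals is unknown.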
